A study of Mus musculus with 32 samples.

Results

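Chromatin accessibility was described at 2 leucine tRNA genes of the mouse, tRNA-Leu-CAA-4-1 with tRNA-Leu-TAA-3-1, of 401 tRNA loci measured by ATAC-seq in brain and liver. Both were chosen by their normalised read counts in the brain of mice without tRNA-Phe-1-1, where the signal was raised over wild type. The values of that contrast therefore describe the choice and are given without a test. ATAC-seq inserts sequencing adapters into open DNA with the Tn5 transposase, and the value of a locus is the number of short, nucleosome-free fragments over the gene and 50 nt on each side, divided by a size factor for the library (normalised read count).

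A leucine tRNA carries leucine to the ribosome and is one of several isoacceptors, which differ in anticodon. Genes named CAA encode tRNAs for the UUG codon, and genes named TAA encode tRNAs for the UUA codon. tRNA genes are transcribed by RNA polymerase III from promoter elements inside the gene (the A and B boxes), so that the open window covers promoter and gene at once. Many tRNA genes have several near-identical copies, and the numbers that end a name give the isodecoder (the sequence type within an anticodon) and its gene copy. The tables held 26 tRNA-Leu loci, 4 of them with the CAA and 4 with the TAA anticodon. In RefSeq the mouse tRNA-Leu genes with the CAA anticodon are 105 to 107 nt long, since they hold an intron, and those with the TAA anticodon are 83 nt long.

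The 32 libraries came from nuclei of brain or liver tissue of male C57BL/6N mice, 10 weeks old and littermate-matched. Each knockout line is homozygous for a CRISPR deletion of a single tRNA gene in every cell: tRNA-Phe-1-1 in Phe11, tRNA-Phe-2-1 in Phe21 and tRNA-Phe-3-1 in Phe31. Wild-type mice carry none of these deletions. The brain libraries were 5 wild-type, 4 Phe11, 3 Phe21 and 3 Phe31, and the liver libraries 7 wild-type, 4 Phe11, 3 Phe21 and 3 labelled Phe31. Libraries of the Phe11 comparisons were labelled batches 1 and 2 (the labels do not say batches of what), those labelled Phe31 in liver and their 3 wild-type livers from batch 3, and all Phe21 libraries and the Phe31 brains from batch 1.

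Brain libraries held 20315 to 35565 reads over the 401 loci (median 26173) and liver libraries 4719 to 23754 (median 9329). The deleted locus fell in each brain comparison, from 108 to 36.7 normalised reads on average for tRNA-Phe-1-1 in Phe11, from 8.72 to 0.611 for tRNA-Phe-2-1 in Phe21 and from 45.8 to 2.20 for tRNA-Phe-3-1 in Phe31. In liver it fell from 22.0 to 3.18 in Phe11 and from 2.94 to 0.201 in Phe21. The livers labelled Phe31 held 9.74 normalised reads on average at tRNA-Phe-3-1 against 12.9 in their wild-type livers, and 0.751 against 7.54 at tRNA-Phe-1-1. Their label was therefore not borne out by the locus it names, and they are called the livers labelled Phe31. tRNA-Arg-TCT-4-1, an arginine tRNA gene used mainly in the nervous system, had 101 to 147 joint normalised reads (all 32 libraries scaled together) in the brains and 0.806 to 21.5 in the livers. Of 55 pairs of libraries of 1 group, 4 differed by less than the sampling noise of independent libraries (chi-square per degree of freedom 0.440 to 0.764), each made of 1 library of batch 1 and 1 of batch 2. These were wild-type brains 3 and 18, wild-type livers 1 and 22, wild-type livers 3 and 24, and Phe11 livers 6 and 20. Each pair was counted as 1 sample in the means ± SD below. The study describes its wild-type brain and liver samples as taken from as many control mice as there are wild-type libraries in batches 1 and 2, which goes against counting the close wild-type pairs as 1 sample. The log2 differences and p-values therefore use every library unless stated otherwise, and means over all libraries are given where the choice matters. The labels name no mouse for a library, so a p-value measures the spread between libraries.

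In the Phe11 brains both loci had more signal than in wild type, and no Phe11 library reached down to any wild-type library. At tRNA-Leu-CAA-4-1 the wild-type brains 1, 3, 16 and 18 had 25.1, 29.4, 22.6 and 39.4 normalised reads. The Phe11 brains 5, 6, 13 and 14 had 56.4, 61.9, 60.9 and 81.6. The lowest Phe11 brain thus lay above the highest wild-type brain, wild-type brain 18 of batch 2. The means were 27.3 ± 6.23 (SD, n = 3) and 65.2 ± 11.2 (SD, n = 4), or 238% of wild type. With wild-type brains 3 and 18 counted apart the wild-type mean was 29.1 ± 7.41 (SD, n = 4) and Phe11 stood at 224% of it. At tRNA-Leu-TAA-3-1 the same wild-type brains had 25.1, 28.1, 21.5 and 19.7 normalised reads. Phe11 brains had 60.3, 49.9, 48.1 and 54.4. The gap between groups was wider at this locus than the range within either, and the means were 23.5 ± 1.83 (SD, n = 3) and 53.2 ± 5.44 (SD, n = 4), or 226% of wild type. In bulk tissue, more cells with an open locus and more open copies per cell cannot be told apart.

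**Figure D1:**
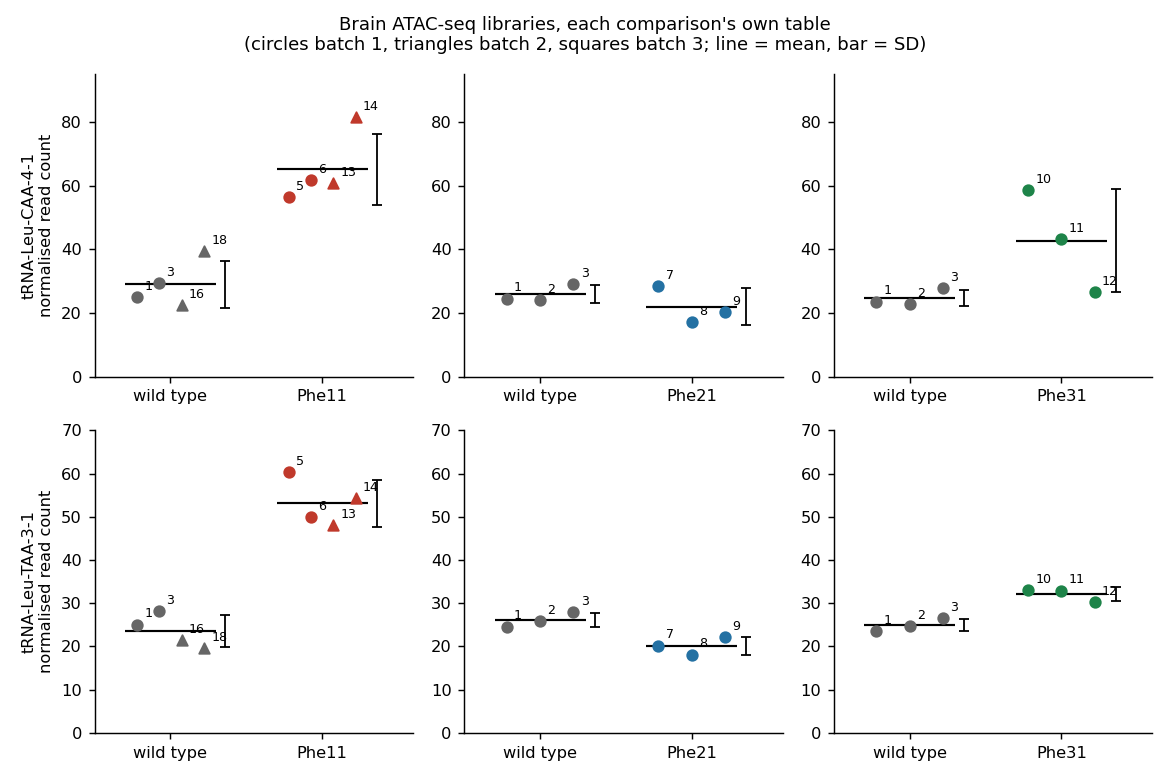
Normalised read counts (y axis) of tRNA-Leu-CAA-4-1 (top) and tRNA-Leu-TAA-3-1 (bottom) in each brain library of the 3 comparisons, with the replicate number beside each point, the mean over all libraries as a line and the SD as a bar. Phe11 brains sit at 56.4 to 81.6 and 48.1 to 60.3 respectively, apart from their wild-type brains, Phe21 brains overlap or lie below theirs, and Phe31 brain 10 reaches 58.6 at tRNA-Leu-CAA-4-1. Wild-type brains 1 and 3 recur in all 3 comparisons.

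On the scale of log2(normalised reads + 1), tRNA-Leu-CAA-4-1 was higher in Phe11 by 1.15, by 1.09 in batch 1 alone and by 1.21 in batch 2 alone. tRNA-Leu-TAA-3-1 was higher by 1.15, by 1.02 and by 1.27. With the close pair of wild-type brains as 1 sample, and no batch term, the differences were 1.23 and 1.14. Over the table, 39 of 263 loci tested (14.8%) passed the threshold upward, an adjusted p of 0.05 by limma with Benjamini-Hochberg adjustment over all loci tested, and 35 (13.3%) passed downward. Some 37 loci (14.1%) were higher in every Phe11 than in every wild-type brain. The 2 leucine loci held places 4 and 5 in the order of all 263 by log2 difference, next to each other. tRNA-Gln-CTG-1-1, a glutamine tRNA gene, stood just above them at 1.26 and tRNA-His-GTG-2-4, a histidine tRNA gene, just below at 1.09. In batch 1 alone their places were 3 and 6 of 261, and in batch 2 alone 5 and 3 of 264.

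In absolute terms both were weak loci that moved up the order. By reads, tRNA-Leu-CAA-4-1 ranked 196 to 227 of 401 in the wild-type brains and 126 to 172 in the Phe11 brains. tRNA-Leu-TAA-3-1 ranked 216 to 237 and 158 to 198. The reads behind the values were 21 to 34 and 17 to 23 per wild-type brain, and 58 to 93 and 54 to 68 per Phe11 brain.

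The question of whether loss of another tRNA-Phe gene goes with a like rise was addressed in the Phe21 and Phe31 brains. These comparisons share wild-type brains 1 and 3 with the Phe11 comparison, so their tests are not independent of the choice of the loci. Neither locus passed the test in the Phe21 brains, and both means lay below wild type. tRNA-Leu-CAA-4-1 had 24.6, 24.01 and 29.1 normalised reads in wild-type brains 1, 2 and 3 and 28.4, 17.2 and 20.4 in Phe21 brains 7, 8 and 9. The groups overlapped, at 25.9 ± 2.81 and 22.0 ± 5.78 (SD, n = 3 each), a log2 difference of -0.25 (95% interval -0.77 to 0.27, adjusted p = 0.623 by limma). tRNA-Leu-TAA-3-1 had 24.6, 25.9 and 27.9 against 20.2, 18.1 and 22.2. Every Phe21 brain lay below every wild-type brain, as at 26 of 253 loci (10.3%), with a log2 difference of -0.36 (95% interval -0.84 to 0.11, adjusted p = 0.419 by limma). The exact two-sided permutation p was 0.3 for tRNA-Leu-CAA-4-1 and 0.1, the smallest that 3 against 3 libraries allow, for tRNA-Leu-TAA-3-1. Limma called 0 of 253 loci here (0%), while 43 had an unadjusted p under 0.05, and edgeR and DESeq2 on the recovered reads also called 0. With TMM size factors computed without the tRNA-Phe loci it called 9, and without Phe21 brain 7 likewise 9, and neither leucine locus passed in these fits.

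In the Phe31 brains both loci were above wild type on average and neither passed the test. Wild-type brains 1 and 3, which took part in choosing the loci, are in this comparison too. tRNA-Leu-CAA-4-1 had 23.6, 22.9 and 27.8 normalised reads in the wild-type brains and 58.6, 43.3 and 26.5 in Phe31 brains 10, 11 and 12. Brains 10 and 11 stood well above wild type and brain 12 lay among the wild-type libraries. The means were 24.8 ± 2.62 and 42.8 ± 16.1 (SD, n = 3 each), or 173% of wild type, with a log2 difference of 0.70 (95% interval 0.17 to 1.22, adjusted p = 0.519 by limma, exact permutation p = 0.2). Leaving out Phe31 brain 12 gave a difference of 1.00 that passed the test (adjusted p = 0.0195 by limma), whereas leaving out Phe31 brain 10 gave 0.44 (adjusted p = 0.951 by limma). It did not pass without any of the other libraries. tRNA-Leu-TAA-3-1 had 23.6, 24.8 and 26.6 against 33.1, 32.9 and 30.3. All 3 Phe31 brains exceeded all 3 wild-type brains, as at 16 of 258 loci (6.2%). Their mean was 128% of wild type, a log2 difference of 0.35 (95% interval -0.08 to 0.78, adjusted p = 0.745 by limma, exact permutation p = 0.1). Of 258 loci, 2 were called (0.775%), both lower in Phe31.

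**Figure D2:**
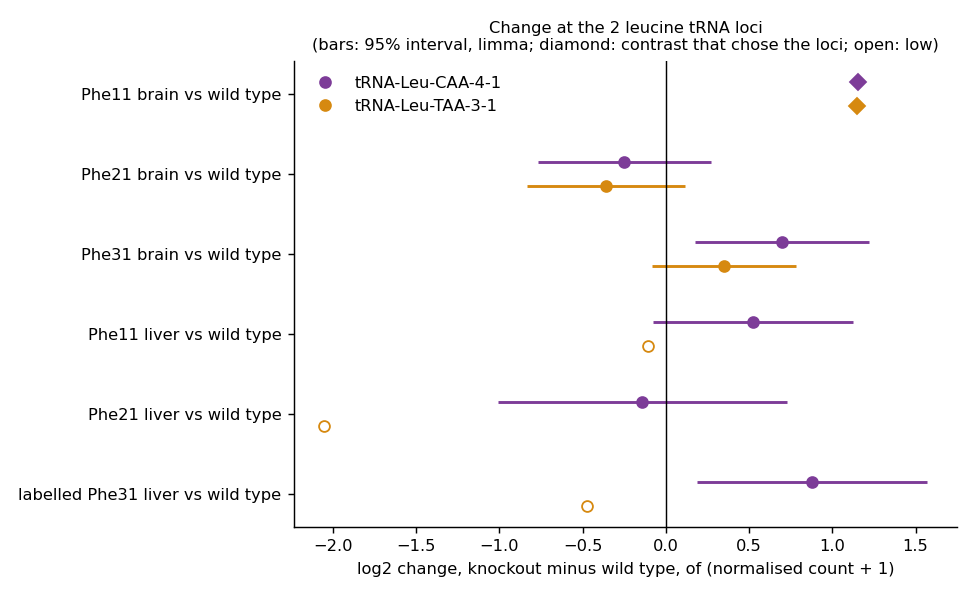
Log2 difference, knockout minus wild type, of normalised reads plus 1 (x axis) at tRNA-Leu-CAA-4-1 (purple) and tRNA-Leu-TAA-3-1 (orange) in the 6 comparisons (y axis), with 95% intervals from limma. Diamonds mark the Phe11 brain contrast, at 1.15 for both loci, which chose them and has no test, and open circles mark values under the filter on low counts, of which the Phe21 liver value of tRNA-Leu-TAA-3-1 lies farthest from 0 at -2.05.

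Phe21 and Phe31 brains were also compared with each other, on 1 scale for all 15 brain libraries. No library of the contrast that chose the loci is in either group, but those libraries enter the joint size factors, the spread and the batch term of the fit. On that scale tRNA-Leu-CAA-4-1 averaged 22.7 ± 6.35 joint normalised reads in Phe21 and 46.5 ± 17.4 in Phe31 (SD, n = 3 each), ranging from 17.4 to 29.8 and from 28.8 to 63.5. The log2 difference, Phe21 minus Phe31, was -0.96 (95% interval -1.43 to -0.49, adjusted p = 0.00703 by limma). tRNA-Leu-TAA-3-1 averaged 20.8 ± 2.28 and 34.8 ± 1.72, and the ranges of 18.3 to 22.9 and 32.9 to 35.9 did not meet, as at 26 of 261 loci in that direction (9.96%). Its log2 difference was -0.72 (95% interval -1.13 to -0.32, adjusted p = 0.0145 by limma). Limma called 20 of 261 loci (7.66%), 13 of them (4.98%) lower in Phe21. The exact permutation p was 0.2 and 0.1, where 0.1 is the smallest possible. Single libraries decided both calls. Without Phe21 brain 8 the adjusted p by limma was 0.0757 for tRNA-Leu-CAA-4-1 and 0.0760 for tRNA-Leu-TAA-3-1, without Phe31 brain 10 it was 0.0806 and 0.0533, and without Phe31 brain 11 it was 0.0336 and 0.0534. With the Phe21 and Phe31 libraries alone, so that no Phe11 or wild-type brain entered the fit, it was 0.0444 and 0.0727. DESeq2 on the recovered reads gave adjusted p = 0.0260 for tRNA-Leu-CAA-4-1 and 0.137 for tRNA-Leu-TAA-3-1, and called 4 loci in all.

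Both loci are the smaller part of their anticodon family, and their share of the family's reads does not depend on the size factors. In wild-type brains tRNA-Leu-CAA-4-1 took 5.18% ± 1.05 (SD, n = 4) of the reads of the 4 tRNA-Leu-CAA loci, and tRNA-Leu-TAA-3-1 took 6.36% ± 0.415 of those of the 4 tRNA-Leu-TAA loci. The shares were 11.9% ± 1.64 and 12.8% ± 0.909 in the 4 Phe11 brains, and 4.14% ± 1.12 and 5.15% ± 0.656 in the 3 Phe21 brains. The mean shares of Phe31 brains lay between those of Phe11 and Phe21, at 8.42% ± 3.12 and 8.84% ± 0.303 (SD, n = 3). At tRNA-Leu-CAA-4-1 the Phe31 shares of 5.15% to 11.4% overlapped the Phe11 shares of 10.9% to 14.4%. Phe31 and Phe21 brains overlapped in the share of tRNA-Leu-CAA-4-1 (exact two-sided permutation p = 0.2) and not in that of tRNA-Leu-TAA-3-1 (p = 0.1, the smallest possible, exact permutation test), where Phe21 was lower throughout, as in the family shares of 29 of 260 loci (11.2%).

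**Figure D3:**
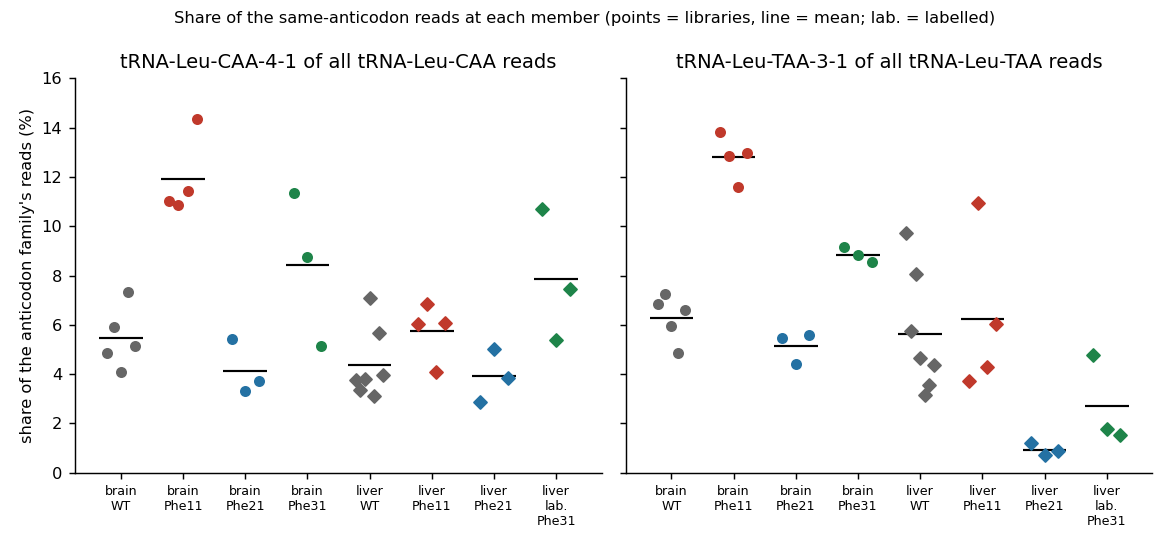
Share (%, y axis) of the reads of the 4 same-anticodon loci that lay at tRNA-Leu-CAA-4-1 (left) and tRNA-Leu-TAA-3-1 (right), for each library by tissue and genotype (x axis), with the mean as a line. Phe11 brains are highest at both loci on average, 11.9% and 12.8%, and the 3 Phe21 livers lie at 0.699% to 1.19% at tRNA-Leu-TAA-3-1.

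The other loci of both anticodons had log2 differences nearer to 0 in Phe11 brains. Both chosen loci were picked for their rise in that contrast, so this difference describes the choice. tRNA-Leu-CAA-1-1 averaged 68.1 normalised reads in wild type and 91.7 in Phe11, a log2 difference of 0.43 ± 0.11 (SE) that passed the test (adjusted p = 0.00431 by limma). tRNA-Leu-CAA-2-1 and tRNA-Leu-CAA-3-1 had log2 differences of -0.15 and -0.13, and tRNA-Leu-TAA-1-1 and tRNA-Leu-TAA-2-1 of -0.11 and 0.07, none of which passed. tRNA-Leu-TAA-4-1 had few reads, with 1.22 normalised reads on average in wild type and 0.396 in Phe11, and was not tested. In the Phe31 brains tRNA-Leu-CAA-1-1 had a log2 difference of 0.38, which did not pass, and the other 4 tested loci of both anticodons lay between -0.22 and 0.06.

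Among all 24 other tRNA-Leu loci, 18 passed the filter on low counts in brain. In Phe11 brains 3 rose, 2 fell and 13 did not pass, beside the 14.8% of all loci tested that rose and the 13.3% that fell, with log2 differences from -0.32 to 0.67 and a median of -0.02, against -0.01 over all 263 loci. Beside tRNA-Leu-CAA-1-1, tRNA-Leu-AAG-3-1 rose by 0.67 ± 0.17 (SE) and tRNA-Leu-TAG-2-1 by 0.42 ± 0.12 on the log2 scale. tRNA-Leu-TAG-3-1 fell by 0.32 and tRNA-Leu-AAG-2-1 fell by 0.26 on the log2 scale. No other leucine locus had a log2 difference as high as those of the 2 chosen loci there. Those 2 loci were chosen for their rise in that contrast, so this order describes the choice. In Phe21 brains 0 of the 18 passed (0% of all loci tested), with a median log2 difference of 0.13 against 0.01 over all loci. In Phe31 brains 1 passed (0.775% of all loci tested), tRNA-Leu-AAG-1-2, which fell by 0.52 on the log2 scale, and the median was 0.01. Between Phe21 and Phe31 brains, tRNA-Leu-AAG-1-2 was higher in Phe21 by 0.48 and tRNA-Leu-TAG-3-1 by 0.39 on the log2 scale, opposite in direction to the 2 loci described here.

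Over the 15 brain libraries the log2 values of both loci ran together, with a Pearson r of 0.85. These libraries include those that chose the loci, and after the mean of each genotype and batch was taken out r was 0.28. The loci whose pattern was most like that of tRNA-Leu-CAA-4-1, of 260, were the serine tRNA gene tRNA-Ser-GCT-1-1 (r = 0.91, and 0.55 within genotype and batch), the alanine tRNA gene tRNA-Ala-AGC-5-2 (0.89 and 0.70) and tRNA-Gln-CTG-1-1 (0.88 and 0.44). For tRNA-Leu-TAA-3-1 they were again tRNA-Ser-GCT-1-1 (0.91 and 0.52), the arginine tRNA gene tRNA-Arg-ACG-2-1 (0.89 and 0.0017) and the tyrosine tRNA gene tRNA-Tyr-GTA-1-3 (0.87 and 0.57). In the 17 livers the r between both leucine loci was 0.10, and tRNA-Leu-TAA-3-1 was under the filter there.

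Wild-type brain and wild-type liver overlapped at both loci, and neither passed the test, although most loci did. Wild-type brains 1, 3, 16 and 18 took part in choosing the loci, so this test is not independent of that choice. Each library was scaled on tRNA loci alone, so a level compared between tissues is relative to the typical tRNA locus. On 1 scale for all libraries, tRNA-Leu-CAA-4-1 averaged 15.3 ± 3.23 joint normalised reads (SD, n = 4) in brain and 14.2 ± 4.13 (SD, n = 2) in livers of batches 1 and 2, with close pairs as 1 sample. Fitted on all 5 brain and 4 liver libraries, the log2 difference, brain minus liver, was 0.17 (95% interval -0.40 to 0.74, adjusted p = 0.571 by limma), and with close pairs as 1 sample and no batch term it was 0.03 (adjusted p = 0.926 by limma). tRNA-Leu-TAA-3-1 averaged 13.9 ± 1.40 and 10.8 ± 4.197, a difference of 0.28 over all libraries (95% interval -0.35 to 0.92, adjusted p = 0.408 by limma) and of 0.31 with close pairs as 1 sample (adjusted p = 0.395 by limma). Of 238 loci, 173 (72.7%) were called in this comparison, and the median difference was 0.11. Of the 18 other leucine loci tested, 5 were higher in brain and 6 in liver. The largest was tRNA-Leu-AAG-3-1, with a log2 difference of -2.50, followed by tRNA-Leu-CAA-1-1 at -0.78, tRNA-Leu-TAA-1-1 at 0.72, tRNA-Leu-TAG-3-1 at 0.58 and tRNA-Leu-TAG-2-1 at -0.56. The intervals of both chosen loci leave room for differences of the size seen at several of these.

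In Phe11 livers tRNA-Leu-CAA-4-1 was above wild type on average and was not called, and tRNA-Leu-TAA-3-1 overlapped wild type. tRNA-Leu-CAA-4-1 had 7.67, 7.72, 8.05 and 15.4 normalised reads in wild-type livers 1, 3, 22 and 24. Phe11 livers 4, 6, 20 and 21 had 13.3, 17.7, 10.6 and 14.4. The other wild-type livers lay below all Phe11 livers, and wild-type liver 24 lay among them. With close pairs as 1 sample the means were 9.72 ± 2.63 (SD, n = 2) and 13.96 ± 0.599 (SD, n = 3), and over all libraries they were 9.72 ± 3.81 and 14.004 ± 2.92 (SD, n = 4 each). The log2 difference over all libraries was 0.52 (95% interval -0.08 to 1.13, adjusted p = 0.304 by limma, exact permutation p = 0.114). It was 0.91 in batch 1 alone and 0.14 in batch 2 alone. The locus reached the filter of 10 through the Phe11 livers, since the wild-type mean of 9.72 was under it. Limma called 25 of 207 loci (12.1%), 11 of them upward (5.31%). Of the 18 other leucine loci tested, 2 rose and 0 fell there, tRNA-Leu-TAG-2-1 by 0.71 ± 0.18 (SE) and tRNA-Leu-CAA-1-1 by 0.55 ± 0.15 on the log2 scale. tRNA-Leu-TAA-3-1 had 10.95, 6.44, 8.05 and 4.11 normalised reads against 4.09, 13.5, 4.43 and 6.60, from 4 to 16 reads per library. The groups overlapped throughout, at a log2 difference of -0.11 with no test because the mean was under the filter (exact permutation p = 0.886). Summed over libraries, the ratio of Phe11 to wild type was 0.946 at tRNA-Leu-TAA-3-1 (95% interval for counting error only 0.553 to 1.65) and 1.39 at tRNA-Leu-CAA-4-1 (0.916 to 2.17). The difference of the Phe11 effect between brain and liver was not tested.

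**Figure D4:**
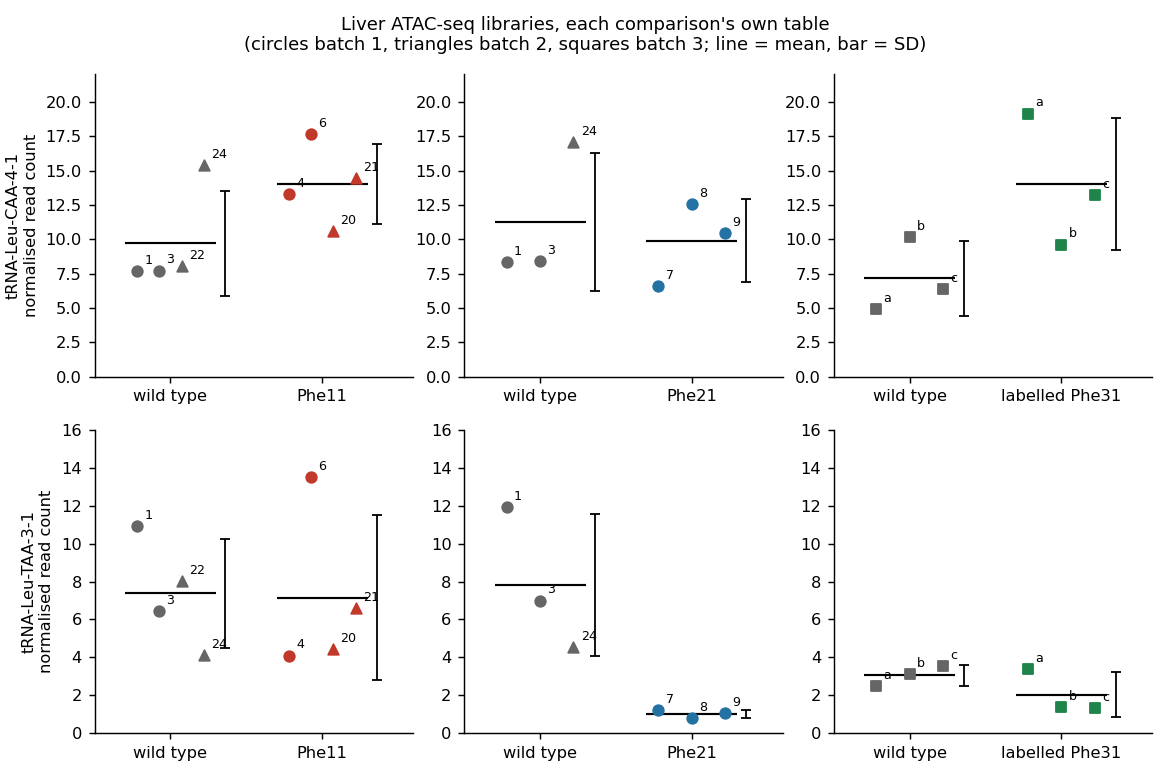
Normalised read counts (y axis) of tRNA-Leu-CAA-4-1 (top) and tRNA-Leu-TAA-3-1 (bottom) in each liver library of the 3 comparisons, with the replicate number or letter beside each point, the mean over all libraries as a line and the SD as a bar. The 3 Phe21 livers lie at 0.786 to 1.204 for tRNA-Leu-TAA-3-1, under every wild-type liver of that comparison, while the other groups overlap or nearly meet.

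In Phe21 livers tRNA-Leu-TAA-3-1 was far below wild type and tRNA-Leu-CAA-4-1 overlapped it. tRNA-Leu-CAA-4-1 had 8.35, 8.40 and 17.1 normalised reads in wild-type livers 1, 3 and 24 and 6.62, 12.6 and 10.5 in Phe21 livers 7, 8 and 9. These overlapped, at a log2 difference of -0.14 (95% interval -1.01 to 0.73, adjusted p = 0.830 by limma). The sign turned without wild-type liver 24 (0.17, under the filter) and without Phe21 liver 7 (0.10). tRNA-Leu-CAA-4-1 reached the filter of 10 through the wild-type livers, with a mean of 11.3 against 9.89 in Phe21. tRNA-Leu-TAA-3-1 had 11.9, 7.00 and 4.56 against 1.204, 0.786 and 1.05. Every Phe21 liver lay below every wild-type liver, as at 68 of 377 loci with any reads (18%), from 1 or 2 reads per Phe21 library and 4 to 10 per wild-type library. The summed reads were 4 in Phe21 and 19 in wild type, a ratio of 0.132 after size factors (95% interval for counting error only 0.0325 to 0.396). The log2 difference was -2.05. The mean was under the filter, and in the fit with no filter it passed the test (adjusted p = 0.0121 by limma), as did 43 of 377 loci (11.4%), 25 of them downward (6.63%). The exact permutation p was 0.1, the smallest that 3 against 3 allow. Without wild-type liver 24, which leaves batch 1 alone, the log2 difference was -2.34, and with livers 3 and 24 as 1 sample it was -2.22. The lower depth of the livers means that a wild-type liver rests on at most 10 reads at this locus.

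tRNA-Arg-TCT-4-1, the nervous-system gene, moved with the groups in liver. It had 10.7, 9.80 and 6.84 normalised reads in wild-type livers 1, 3 and 24 and 0.602, 1.57 and 2.09 in the Phe21 livers, a ratio of 0.142 (95% interval for counting error only 0.0420 to 0.384). In Phe11 livers it was likewise low, at 1.04 to 3.07 against 6.17 to 9.86 in wild type, a ratio of 0.207 (0.0853 to 0.456), while tRNA-Leu-TAA-3-1 was at 0.946 of wild type there. In the livers labelled Phe31 it stood at 9.01, 1.37 and 9.26 against 3.29, 1.56 and 2.83. Its part in the values of the leucine loci was not tested.

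**Figure D5:**
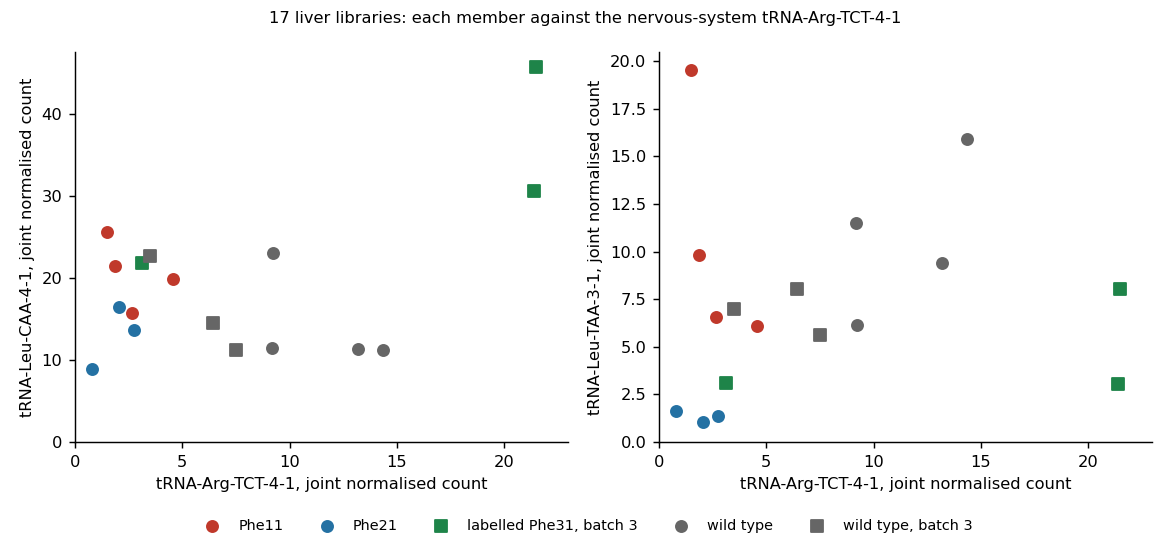
Joint normalised reads of tRNA-Leu-CAA-4-1 (left y axis) and tRNA-Leu-TAA-3-1 (right y axis) against those of tRNA-Arg-TCT-4-1 (x axes) in the 17 liver libraries, by genotype and batch (squares, batch 3). Phe21 livers are low on both axes of the right panel, whereas Phe11 livers, which reach 4.58 on the x axis where Phe21 livers reach 2.73, spread from 6.11 to 19.6 on its y axis.

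The difference of the Phe21 effect between tissues was tested in 1 fit over the libraries of both Phe21 comparisons. These include wild-type brains 1 and 3, which took part in choosing the loci. At tRNA-Leu-TAA-3-1 the log2 effect in brain minus that in liver was 1.90 (95% interval 0.55 to 3.25, adjusted p = 0.0824 by limma), which did not pass, and edgeR on the recovered reads gave 2.45 (adjusted p = 0.0407). The locus reached the filter on low counts in this fit through its brain libraries, since in liver alone it was under it, so this value rests on the few liver reads given above. At tRNA-Leu-CAA-4-1 it was -0.10 (95% interval -1.13 to 0.94, adjusted p = 0.925 by limma). Limma called 13 of the 240 loci (5.42%) in this fit. Set directly against each other, Phe21 brains and Phe21 livers had 12.6 ± 3.54 and 12.998 ± 3.85 joint normalised reads at tRNA-Leu-CAA-4-1 (SD, n = 3 each), a log2 difference of -0.07 (adjusted p = 0.872 by limma). At tRNA-Leu-TAA-3-1 they had 11.5 ± 1.38 and 1.34 ± 0.292. That log2 difference was 2.53, and it passed in the fit with no filter (adjusted p = 0.000217 by limma), as did 96 of 373 loci in the direction of brain (25.7%). The share called with the filter on low counts was 27 of 201 loci (13.4%) in the Phe21 liver comparison. Likewise, 145 of 235 loci (61.7%) were called between these tissues.

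In the livers labelled Phe31, tRNA-Leu-CAA-4-1 averaged 13.996 ± 4.81 normalised reads against 7.16 ± 2.70 in the wild-type livers of batch 3 (SD, n = 3 each), or 196% of wild type. The single values were 4.94, 10.2 and 6.37 in wild type and 19.1, 9.62 and 13.2 in the livers labelled Phe31. Replicate b of the labelled livers lay below the highest wild-type liver. The log2 difference was 0.88 (95% interval 0.19 to 1.57, adjusted p = 0.103 by limma, exact permutation p = 0.2). The locus reached the filter of 10 through the labelled livers alone, so that leaving out libraries also moves it towards or under the filter. Without replicate b it was 1.10 (adjusted p = 0.0404 by limma), whereas without replicate a of the labelled livers it was 0.64 and under the filter, and without wild-type liver a it was 0.68 (adjusted p = 0.394 by limma). tRNA-Leu-TAA-3-1 had 2.47, 3.13 and 3.54 against 3.38, 1.37 and 1.32, from 1 to 5 reads per library, and was under the filter. Its ratio was 0.686 (95% interval for counting error only 0.189 to 2.09), which holds ratios on both sides of 1. Limma called 19 of 178 loci (10.7%), 3 of them upward (1.69%).

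The reads of both loci were also set against each other within the groups. Summed reads of tRNA-Leu-CAA-4-1 were 1.16 times those of tRNA-Leu-TAA-3-1 in wild-type brains (exact 95% interval 0.887 to 1.51, counting error only), 1.24 times in Phe11, 1.09 times in Phe21 and 1.33 times in Phe31. In liver the ratio was 1.69 in wild type (1.10 to 2.63), 2.03 in Phe11, 9.25 in Phe21 (3.32 to 35.7) and 6.80 in the livers labelled Phe31 (2.65 to 22.3). The wild-type sum pools 33 and 24 reads in livers of batches 1 and 2 with 28 and 12 in those of batch 3. A ratio within a library needs no size factor. The window lengths of both loci were not measured and may differ, so its value is not read as a ratio of accessibility.

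On 1 scale and averaged over all libraries of a group, the levels of tRNA-Leu-CAA-4-1 ran from 38.6 joint normalised reads in Phe11 brain through 32.7 in the livers labelled Phe31, 25.9 in Phe31 brain and 20.7 in Phe11 liver to 12.6 in Phe21 brain, and neighbours in that order overlapped in their libraries at every step. Those of tRNA-Leu-TAA-3-1 ran from 31.5 in Phe11 brain through 19.5 in Phe31 brain, 13.9 in wild-type brain, 11.5 in Phe21 brain, 10.8 in wild-type liver of batches 1 and 2, 10.5 in Phe11 liver, 6.88 in wild-type liver of batch 3 and 4.74 in the livers labelled Phe31 to 1.34 in Phe21 liver. Neighbours in this order overlapped except in 3 steps. Phe11 brains, which chose the locus, all lay above the Phe31 brains, as at 39 of 379 loci with any reads (10.3%). Phe31 brains all lay above the wild-type brains, as at 9 of 377 loci (2.39%). Wild-type brains 1, 3, 16 and 18 took part in choosing the locus, so this step is not independent of the choice. The livers labelled Phe31 all lay above the Phe21 livers, as at 69 of 377 loci (18.3%). The former are of batch 3 and the latter of batch 1, so genotype and batch cannot be told apart there.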

How the data were processed

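ATAC-seq libraries of 32 samples were used. Per the study's methods, adapters were removed by the authors with Trim Galore 0.6.4, and they mapped the reads to GRCm38.p6 with Bowtie2 2.4.1, removed duplicates using Picard 2.23.8, dropped alignments of low mapping quality, kept nucleosome-free fragments and counted them with featureCounts 2.0.0 over GtRNAdb tRNA genes with 50 nt on each side. Reads that fit several near-identical copies can be lost at the quality step, and that effect was not tested. The deposited signal of a locus is its reads after division, by the authors, by the library's DESeq2 size factor, which was set in each of 6 tables apart (40 columns). Whole reads were recovered from all columns (100% whole within 0.001), although 4 columns lack a separate check. The authors' tables of fold changes and s-values and their peak files were not used. Positions of the loci were not used here.

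Locus values plus 1 were log2-transformed, loci with a mean of at least 10 were tested with limma 3.58.1 (trend, two-sided, R 4.3.3), with batch as a term in the Phe11 comparisons, the fit over all brains and that between wild-type tissues, and p-values were adjusted over all loci tested at 0.05. The scale understates changes of low loci. Comparisons across tables used recovered reads with joint median-of-ratios size factors. Recovered reads were also tested with edgeR 4.0.16 and DESeq2 1.42.0. The fits were tested on simulated data. Close pairs of libraries were found by a chi-square test of their reads (adjusted p under 0.05). Intervals of ratios are exact binomial at 95% and cover counting error only.

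The loci, lists and tests were chosen with earlier results of these data known. Loci named were the 2 leucine loci, the deleted tRNA-Phe locus, the neighbours of the leucine loci in the Phe11 brain order, the 3 loci of highest correlation with each, up to 5 called tRNA-Leu loci per comparison, all CAA and TAA loci, and tRNA-Arg-TCT-4-1 as a tissue check. Settings varied were the pseudocount, filter, size factors, trend, tool, batch term, and each library left out. Some alternatives changed more than a single choice: TMM factors left out the tRNA-Phe loci, and the batch term was dropped where the batch 3 livers were added or close pairs averaged. Averaging close pairs and the tissue difference of the Phe21 effect were added after the data were seen. Depth was 4719 to 35565 reads per library over 401 loci.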

Additional observations from a re-analysis of the deposited data

Results flagged for a closer look

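Wild-type liver 24 stood apart at tRNA-Leu-CAA-4-1 in the Phe11 liver comparison, with 15.4 normalised reads where the 3 other wild-type livers had 7.67 to 8.05, a gap larger than Dixon's 95% critical value for 4 samples. Its value rests on 15 reads against 5 to 7. The same library had 4.11 normalised reads at tRNA-Leu-TAA-3-1, the lowest of its group, and over all loci it differed from wild-type liver 3 by less than sampling noise. Of 8 groups examined 1 stood out, where chance gives about 1 in 20.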

How the results depend on the processing

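Changing the filter, the trend or the balanced batch term of the Phe11 comparisons leaves a log2 difference unchanged by construction. Such alternatives are in the counts that follow, which are therefore not counts of independent checks. Of 279 alternative values at the 2 loci, 254 kept direction and side of the threshold, or moved by less than the replicate SD. In the other cases, other than those the construction of the alternative shows, the cause was not tested. A pseudocount of 10 gave a log2 difference of 0.91 for tRNA-Leu-TAA-3-1 in Phe11 brain, and pseudocounts of 0.1 and 10 gave -2.74 and -0.67 in Phe21 liver and 3.01 and 1.10 for Phe21 brain minus liver. With no filter the latter were -2.05 and 2.53 and both passed. For Phe21 minus Phe31 brain, DESeq2 gave -0.75 at tRNA-Leu-TAA-3-1 (adjusted p = 0.137) and the 2 groups alone gave -0.73, neither of which passed. In the tissue difference of the Phe21 effect, edgeR gave 0.0135 for tRNA-Leu-CAA-4-1, a change of sign, and 2.45 for tRNA-Leu-TAA-3-1, which passed. tRNA-Leu-CAA-4-1 changed sign in Phe21 liver without wild-type liver 24 (0.17) or Phe21 liver 7 (0.10) and in Phe21 brain minus liver without Phe21 brain 8 (0.11) or liver 8 (0.08).

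With each library left out in turn, log2 differences of the CAA and the TAA locus ranged from 0.99 to 1.30 and 1.09 to 1.23 in Phe11 brain, -0.44 to -0.09 and -0.43 to -0.29 in Phe21 brain, 0.44 to 1.00 and 0.31 to 0.39 in Phe31 brain, 0.37 to 0.77 and -0.41 to 0.20 in Phe11 liver, -0.32 to 0.17 and -2.34 to -1.73 in Phe21 liver, 0.64 to 1.13 and -0.78 to -0.32 in the livers labelled Phe31, -1.26 to -0.70 and -0.79 to -0.64 for Phe21 minus Phe31 brain, 0.03 to 0.36 and 0.11 to 0.43 for wild-type brain minus liver, and -0.30 to 0.11 and 2.42 to 2.65 for Phe21 brain minus liver.

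In several comparisons the counts of loci called depended on the settings. In Phe11 brain 74 loci became 35 with DESeq2 and 6 in batch 1 alone. In Phe21 brain 0 became 9 with TMM size factors computed without the tRNA-Phe loci, and 0 to 9 with a library left out. In Phe31 brain 2 became 1 with a minimum mean of 30, with the same TMM factors, without the trend and with DESeq2, and 1 to 3 with a library left out. In Phe11 liver 25 became 15 with a minimum of 30, 12 without the trend, 11 with DESeq2, 8 and 5 in batches 1 and 2 alone, 14 with close pairs as 1 sample and no batch term, and 14 to 32 with a library left out. In Phe21 liver 27 became 43 with no filter, 8 without the trend, 12 with DESeq2, and 18 to 36 with a library left out. In the livers labelled Phe31 19 became 1 without the trend, 3 with DESeq2 and 5 to 14 with a library left out. Between Phe21 and Phe31 brain 20 became 4 with DESeq2, 13 with the 2 groups alone and 4 to 24 with a library left out.

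For replicate numbers 7 to 9 of Phe21 brain and liver, same-numbered deviations correlated at 0.033, 0.068 and 0.106 over 235 loci. Differently numbered ones correlated at -0.140 to 0.045. Such weak correlations cannot tell whether a number stands for the same mouse. The replicate block leaves the log2 differences at -0.07 and 2.53 by construction, since the design is balanced, and with it 148 loci were called in place of 145. A block over wild-type numbers 1 and 3, on 2 libraries per tissue, gave 0.33 and 0.18 and 106 loci called in place of 173. A minimum mean of 30 left no test for loci under it. tRNA-Leu-CAA-4-1 fell under the filter in the Phe21 liver comparison without wild-type liver 24 and in that of the livers labelled Phe31 without replicate a of these. Over livers in place of brains the correlation of both loci was 0.10 in place of 0.85. The depth of the livers limits both loci there.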
